A study of Homo sapiens with 24 samples.

Results

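Interferon signalling and the genes it switches on were followed here at their promoters in EndoC-βH3 cells, through the histone mark H3K4me3. The set holds 53 genes, from the sensors of viral RNA and the receptor of type I interferon to the antiviral effectors, out of 20020 protein-coding genes in the annotation (GENCODE release 44, hg38). The genes were listed by name. A gene was given every H3K4me3 region lying within 2 kb of any annotated transcription start site of the gene, and among these the region with the highest level stood for its promoter. Of the 53 genes, 40 had such a region and 13 had none.

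EndoC-βH3 is an immortalized human pancreatic beta cell line from fetal pancreas, in which the immortalizing transgenes can be cut out by the CreER recombinase that the cells carry. H3K4me3 was profiled in 4 non-senescent samples, labelled control, and in 4 senescent samples, treated for 3 weeks with 4-hydroxytamoxifen, which activates CreER. The labels give the dose as 1 mM and the study's methods give micromolar units. All samples carry the genotype label WT, each took 500000 cells, and nothing says whether replicates came from separate cultures. The assay was MINT-ChIP, in which MNase-cut chromatin of each sample is barcoded, pooled and then split among antibodies. The same experiment covered H3K27me3 and H3K9me3, and those 16 samples are not analysed here.

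The level used throughout is the authors' mean of normalized counts in a region, taken over the 8 samples of both states together. It describes the cell line across the 2 states and says nothing of the change from one state to the other. It carries no value per sample, so no error, no depth per sample and no test can be given, and every difference between genes below is a description. A level counts reads over a whole region and grows with its width, so levels of single genes and of the set are also given per kb of width. The split into strong and weak promoters uses the level, as do the comparisons by CpG class, by motif and with the study's gene lists. These are not corrected for width.

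Type I interferons bind a receptor of 2 chains, IFNAR1 and IFNAR2, whose kinases TYK2 and JAK1 phosphorylate STAT proteins. STAT2 and IRF9 then act in a complex that binds the interferon-stimulated response element (ISRE) in the promoters of its target genes. H3K4me3 lies on nucleosomes around active or poised transcription start sites, most strongly at CpG-rich promoters, and many interferon-stimulated genes are kept low until a signal arrives. In pancreatic islets this pathway is known for its link with type 1 diabetes.

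The response element was searched as the letters TTCNNTTTC, or GAAANNGAA read on the other strand, in the RefSeq promoter sequences (GRCh38.p14), which run from 250 bases before the start to 50 after it. Promoters of 43 of the 53 genes were in that table, the first listed was taken for each gene, and 26 of them (60.5%) held the core, against 7.04% of 15308 protein-coding promoters of the same length. The stretches below are the 250 bases before the start of the genes with a core that had the lowest and the highest H3K4me3 levels, taken alternately, with each core in capitals. They lie at chr10:89327747-89327996 (plus strand) for IFIT3, chr3:172523431-172523680 (minus) for TNFSF10, chr15:88638766-88639015 (plus) for ISG20, chr10:89414318-89414567 (plus) for IFIT5, chr1:1013247-1013496 (plus) for ISG15 and chr2:162318685-162318934 (minus) for IFIH1, and each is written from 5′ to 3′ along its gene.
IFIT3: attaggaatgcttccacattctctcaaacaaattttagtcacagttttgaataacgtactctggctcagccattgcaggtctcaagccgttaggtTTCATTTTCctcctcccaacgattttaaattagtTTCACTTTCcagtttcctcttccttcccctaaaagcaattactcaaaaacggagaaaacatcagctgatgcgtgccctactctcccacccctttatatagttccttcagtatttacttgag
TNFSF10: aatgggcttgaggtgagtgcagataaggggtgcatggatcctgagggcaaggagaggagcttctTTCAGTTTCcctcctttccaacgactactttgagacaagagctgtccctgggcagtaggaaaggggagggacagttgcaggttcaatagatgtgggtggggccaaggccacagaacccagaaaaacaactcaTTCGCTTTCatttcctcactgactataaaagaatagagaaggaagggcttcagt
ISG20: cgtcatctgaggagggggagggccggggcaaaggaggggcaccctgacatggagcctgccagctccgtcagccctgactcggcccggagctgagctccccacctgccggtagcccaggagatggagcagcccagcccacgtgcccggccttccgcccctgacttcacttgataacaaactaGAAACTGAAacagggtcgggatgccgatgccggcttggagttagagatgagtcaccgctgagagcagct
IFIT5: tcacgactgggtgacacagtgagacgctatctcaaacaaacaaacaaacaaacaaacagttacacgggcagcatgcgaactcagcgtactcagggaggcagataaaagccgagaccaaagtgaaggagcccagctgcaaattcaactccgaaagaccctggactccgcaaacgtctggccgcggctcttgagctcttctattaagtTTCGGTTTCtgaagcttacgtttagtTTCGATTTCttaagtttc
ISG15: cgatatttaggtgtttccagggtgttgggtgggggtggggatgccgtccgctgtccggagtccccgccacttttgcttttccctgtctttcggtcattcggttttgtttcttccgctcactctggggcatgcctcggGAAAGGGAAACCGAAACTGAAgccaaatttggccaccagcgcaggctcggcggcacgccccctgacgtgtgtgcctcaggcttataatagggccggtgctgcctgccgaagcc
IFIH1: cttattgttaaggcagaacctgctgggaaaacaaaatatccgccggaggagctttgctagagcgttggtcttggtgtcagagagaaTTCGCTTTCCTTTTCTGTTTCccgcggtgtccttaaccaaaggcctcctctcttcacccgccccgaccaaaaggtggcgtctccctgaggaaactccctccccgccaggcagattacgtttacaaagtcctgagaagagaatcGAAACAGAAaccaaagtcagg

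The printed genes with the core cover levels from the lowest of the set to that of TNFSF10, which had the sixth highest level. Part of that spread goes with width, since per kb IFIT3 had 3.23, ISG15 10.2, ISG20 11.4, TNFSF10 12.8, IFIH1 18.4 and IFIT5 21.2. By level, IFIT3, with 2 cores in these bases, had a level of 1.61 normalized counts, and TNFSF10, also with 2, had 58.9. ISG20, with 1 core, had 7.12, and IFIT5, with 2, had 48.6. The 3 cores of ISG15 overlap in a single run of capitals, and its level was 8.47. IFIH1 carried 3 overlapping cores and another on the other strand closer to the start, with a level of 47.9.

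As a whole, the interferon genes had an H3K4me3 region about as often as other genes, and their regions were lower and narrower. The 40 of 53 genes with a region make 75.5%, beside 75.3% of all protein-coding genes. Over the 40 genes the median level was 31.2 normalized counts, with quartiles of 14.9 and 45.6 and a range from 1.61 to 128. Over the 15085 genes of the annotation with a region the median was 49.2, with quartiles of 21.3 and 88.6. A promoter above that median of 49.2 is termed strong here, a split applied to the genes already listed by name. By this split 8 of the 53 genes (15.1%) had a strong promoter, beside 37.7% of all protein-coding genes. The median width was 1752 bp, from 500 to 4604 bp, against 2492 bp for all genes. Per kb of width the gap was small, with a median of 16.6 against 19.0, and 16 of the 40 genes lay above the median of all genes on that scale.

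**Figure D1:**
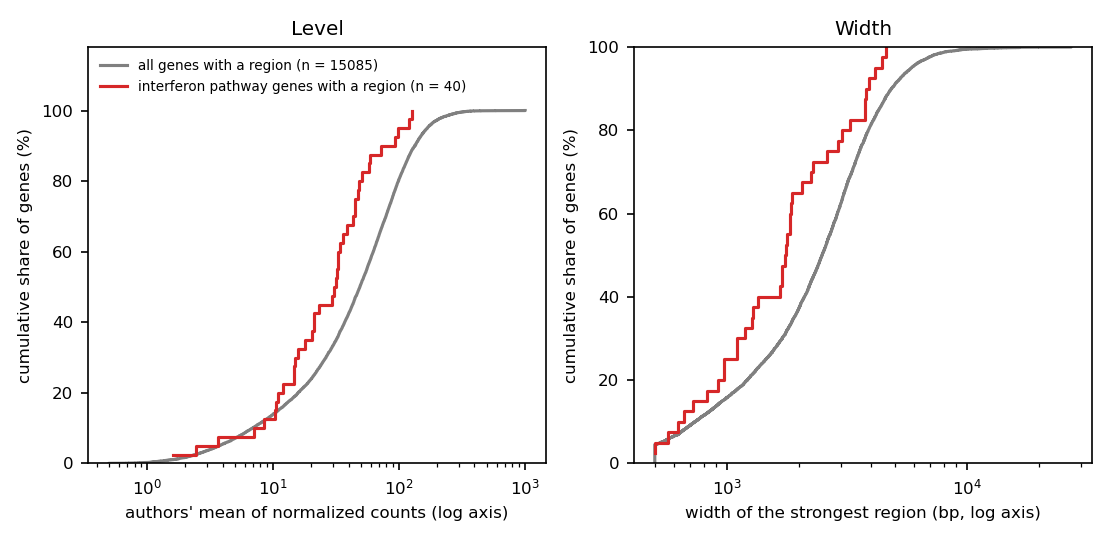
Cumulative share of genes (y axis, percent) by the level of their strongest H3K4me3 region in normalized counts (left) and by its width in bp (right), both on log axes, for the 40 interferon pathway genes with a region (red) and all 15085 genes with a region (grey). The red curves run to the left of the grey ones through most of their range, with medians of 31.2 against 49.2 normalized counts and 1752 against 2492 bp.

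In the plot of cumulative shares the curves cross at the bottom of the range and part above it. The highest of the 40 genes, ADAR, stood at 128, while the upper 5% of all promoters lay above 169. Among 15 genes typical of beta cells, 14 had a region (93.3%, beside 75.3% of all protein-coding genes) and 12 were strong (80%, beside 37.7%). Their median was 231 normalized counts, with 588 and 665 at the transcription factors ISL1 and PAX6. The regions of these beta cell genes were wide, with a median of 6985 bp, and per kb their median was 25.3 against 16.6 for the interferon genes. On that scale SP110, STAT2 and ADAR, at 55.6, 31.3 and 31.1, lay above the beta cell median. So did IFITM3, IFNAR1, DHX58, IFI6, OAS3 and USP18, at 25.4 to 27.2. The other interferon genes with a region lay below it. Of 5 leukocyte genes 1, CD14, had a region (20%, beside 75.3% of all protein-coding genes), at 26.9, which is not strong. Of 6 genes picked for other islet cells 4 had a region (66.7%), and of 4 for exocrine and duct cells 3 (75%). For mesenchyme 2 of 3 had one (66.7%), and for endothelium 1 of 2 (50%). None of the 15 genes picked for these other cell types was strong (0%, beside 37.7%), and the highest of them, HHEX, had 30.7. INS itself, the insulin gene, had a level of 24.7, below the median of all promoters. Of the other beta cell genes, IAPP had 6.94 and MAFA had no region.

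**Figure D2:**
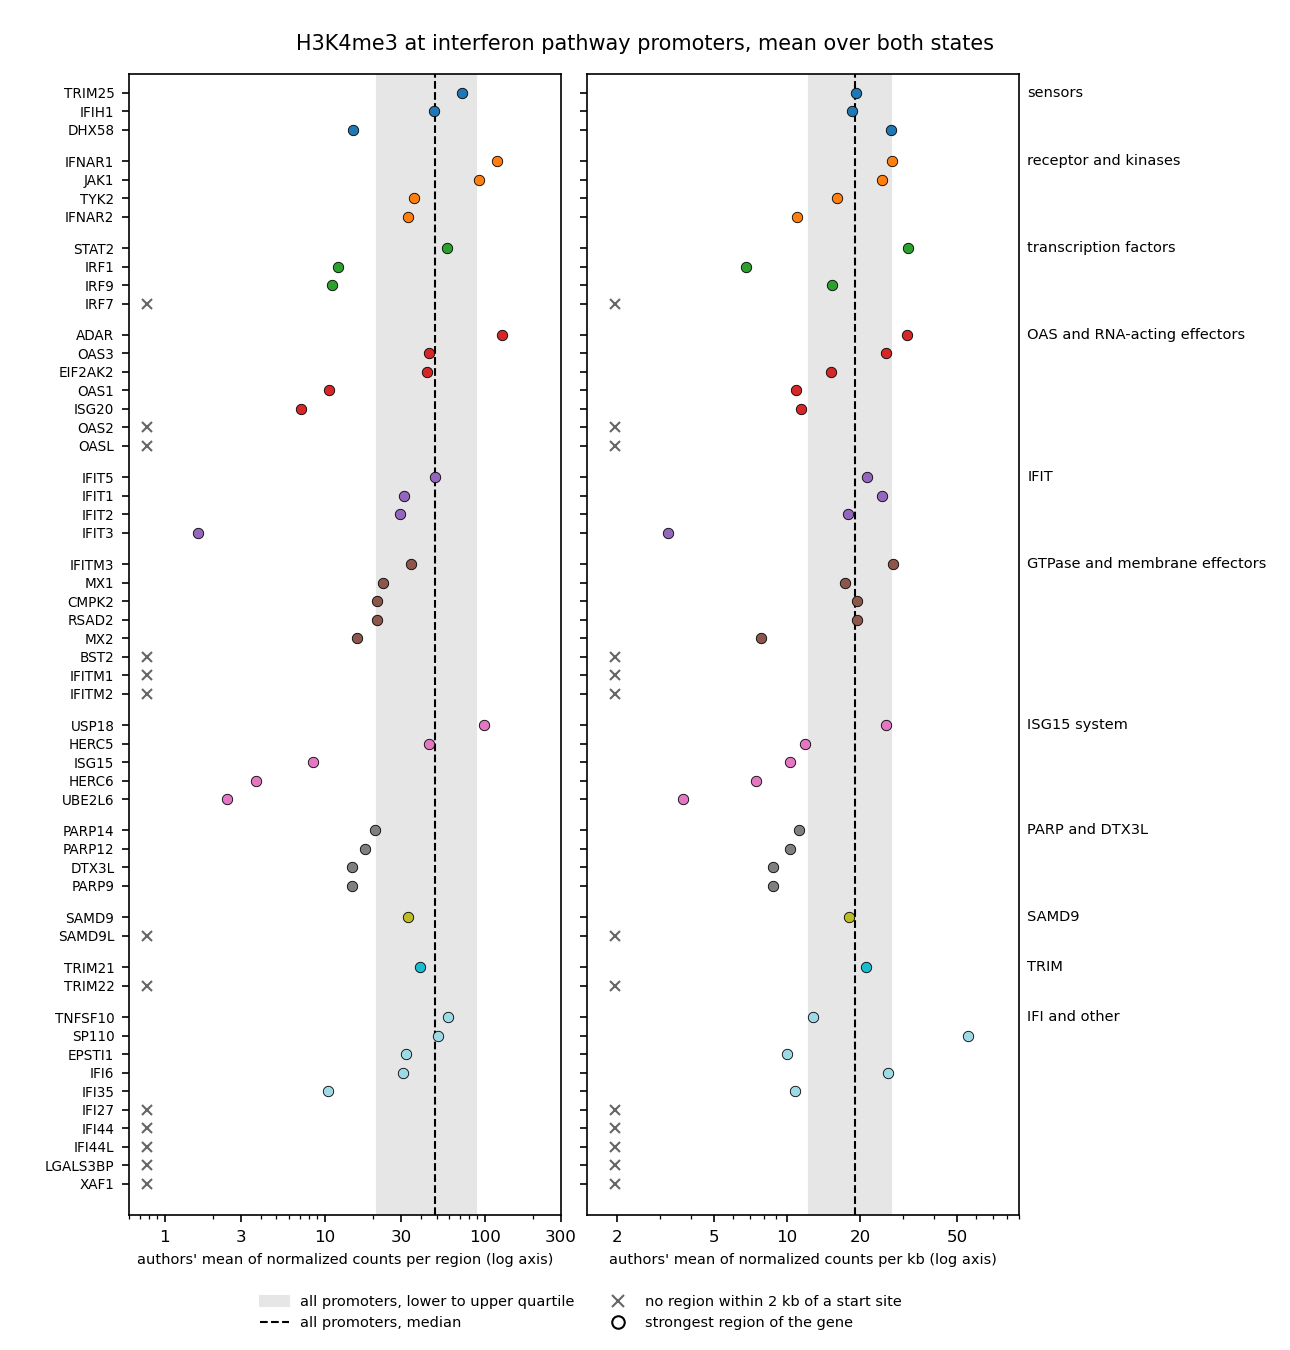
H3K4me3 at the 53 genes by functional group, as the authors' mean of normalized counts in the strongest region (left) and per kb of its width (right), on log axes, one point per gene. The dashed line and the grey band are the median and the quartiles of all 15085 genes with a region, and crosses at the left edge mark the 13 genes without a region. On the left 8 genes lie to the right of the dashed line, on the right 16.

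The 4 genes of the receptor and its kinases all had a region (100%, beside 75.3% of all protein-coding genes), and 2 were strong (50%, beside 37.7%). IFNAR1, the receptor chain that holds TYK2, had the second highest level of the set, 120 normalized counts in a region 4436 bp wide (chr21:33324087-33328523), or 27.04 per kb. IFNAR2, the chain that binds interferon with higher affinity, lies upstream of IFNAR1 on the same chromosome and had 33.0 in 3015 bp (chr21:33228835-33231850), or 11.0 per kb. That region also holds the start of the read-through gene IFNAR2-IL10RB. The kinase JAK1 had 92.7 in 3774 bp (chr1:65065626-65069400), or 24.6 per kb, and TYK2 had 35.9 normalized counts, or 16.0 per kb. Per kb, then, IFNAR1 and JAK1 lay above the median of all promoters of 19.0, and TYK2 and IFNAR2 below it. The JAK1 region covers the most upstream start of the gene, and 2 further regions, with 38.7 and 33.1 normalized counts, flank the canonical start without covering it.

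The transcription factors spread more widely. STAT2 had 58.5 normalized counts in 1867 bp (chr12:56358977-56360844), or 31.3 per kb, the second highest density among the strongest regions of the genes. IRF9, the DNA-binding partner of STAT2, had 11.1 in 723 bp (chr14:24161036-24161759), or 15.3 per kb. That region also lies within 2 kb of RNF31, whose nearest start is 925 bp outside it. IRF1, a factor induced by both types of interferon, had 12.1 in 1780 bp, or 6.77 per kb, and 2 weaker regions at other starts with 8.98 and 2.76. IRF7, which amplifies the production of interferon alpha, had no region, and the nearest lay 12340 bp away with a level of 1.17. By density STAT2 thus lay above its partner IRF9, and IRF1 lay below both.

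Of the sensors, IFIH1 (MDA5, a receptor for long double-stranded RNA) had 47.9 normalized counts in 2605 bp (chr2:162317097-162319702), or 18.4 per kb, in a region shared with the neighbouring gene GCA. TRIM25, a ubiquitin ligase of the RNA-sensing pathway, had 72.3 normalized counts in 3765 bp (chr17:56911476-56915241), or 19.2 per kb. DHX58 (LGP2, which tunes the other sensors) had 15.1 in 565 bp, or 26.7 per kb, at an internal start 4771 bp downstream of the canonical start, which itself had no region. Together, 10 of the 11 genes that sense RNA or carry the signal had a region (90.9%, beside 75.3% of all protein-coding genes) and 4 were strong (36.4%, beside 37.7%), with a median of 41.9. Their share of strong promoters was thus close to that of all genes. Of the 42 other genes, 30 had a region (71.4%) and 4 were strong (9.52%), with a median of 26.5. Per kb the medians of these signalling genes and of the others were 18.8 and 13.9.

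ADAR, which edits adenosines in double-stranded RNA, had the highest level of the set, and it had 2 regions of almost equal level. The upstream region (chr1:154626358-154630481) had 128 normalized counts in 4123 bp, or 31.1 per kb. The downstream region (chr1:154607297-154610078), which covers the canonical start, had 124 in 2781 bp, or 44.7 per kb. Annotated coding transcripts beginning in the upstream region encode at most 931 codons. The 6 beginning in the downstream region include the longest, with 1226 codons, and go down to 350 codons. The longer protein is the form known to be induced by interferon, and the shorter form is known to be made constitutively. Both regions were therefore marked at about the same level, with the higher density in the one that holds the start of the longer form. Shorter transcripts begin there too, so its mark cannot be assigned to the longer form alone.

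The OAS genes make or resemble enzymes that make oligoadenylates, the activators of RNase L, and 3 of them lie in a row on chromosome 12. OAS1 had 10.6 normalized counts in 974 bp (chr12:112906467-112907441), or 10.9 per kb, with a further region of 1.53 at an internal start. OAS3, next in the row, had 44.8 in 1763 bp (chr12:112937798-112939561), or 25.4 per kb. OAS2, the third, had no region, and the nearest lay 6595 bp off with a level of 1.65. OASL, elsewhere on chromosome 12 and without enzyme activity, also had none. Neighbours in this cluster thus ranged from no region to a density above the median of all promoters. EIF2AK2 (PKR, the kinase that halts translation on double-stranded RNA) had 43.7 in 2895 bp (chr2:37155273-37158168), or 15.1 per kb. ISG20, an RNA exonuclease, had 7.12 in 624 bp (chr15:88638437-88639061), a region that ends 45 bp past the canonical start.

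The IFIT genes, whose proteins bind viral RNA, stand in a cluster on chromosome 10. All 4 had a region (100%, beside 75.3% of all protein-coding genes), none of them strong (0%, beside 37.7%). In order along the chromosome, IFIT2 had 29.6 normalized counts in 1662 bp (chr10:89283006-89284668), or 17.8 per kb, at an upstream start, and 22.8 in 1017 bp, or 22.4 per kb, at its canonical start. IFIT3, the next gene, had 1.61 in 500 bp (chr10:89327648-89328148), or 3.23 per kb, the lowest of the 40 on both scales. IFIT1 had 31.6 in 1284 bp (chr10:89391946-89393230), or 24.6 per kb. IFIT5 had 48.6 in 2292 bp (chr10:89413730-89416022), or 21.2 per kb, in a region that also covers a start of the lysosomal lipase gene LIPA. IFIT3 thus stood below each of its neighbours in density, while the printed sequences show the same core in its promoter as in that of IFIT5.

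The ISG15 system attaches a ubiquitin-like protein to other proteins, and its genes ranged from 2.45 normalized counts at UBE2L6 to 99.2 at USP18. ISG15, the modifier, had 8.47 normalized counts in 829 bp (chr1:1013051-1013880), or 10.2 per kb. UBE2L6, its conjugating enzyme, had 2.45 in 661 bp (chr11:57567948-57568609), or 3.71 per kb, at an alternative start that leaves the canonical start 276 bp outside. HERC5, its main ligase, had 44.9 in 3806 bp (chr4:88455667-88459473), or 11.8 per kb. HERC6, next to HERC5 on chromosome 4, had 2 regions of 500 bp, the stronger with 3.71 normalized counts (chr4:88379199-88379699) or 7.42 per kb, and the other, over the canonical start, with 3.39. USP18, which removes ISG15 and also damps the receptor, had 99.2 in 3906 bp (chr22:18148038-18151944), or 25.4 per kb, and a second region with 32.9. Per kb, USP18 alone of the 5 lay above the median of all promoters.

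The membrane effectors and GTPases had regions in 5 of 8 genes (62.5%, beside 75.3% of all protein-coding genes), none strong (0%, beside 37.7%). MX1, a dynamin-like GTPase, had 23.3 normalized counts in 1351 bp (chr21:41419761-41421112), or 17.3 per kb, at an upstream start, and 13.1 in 879 bp, or 14.9 per kb, at the canonical start. MX2, its neighbour on chromosome 21, had 16.0 in 2054 bp (chr21:41369099-41371153), or 7.77 per kb, at a start 7072 bp into the gene, and 3.17 in 500 bp at the canonical start. RSAD2 (viperin) and CMPK2, a mitochondrial nucleotide kinase, lie head to head on chromosome 2, and both were given the region chr2:6866116-6867219, 1103 bp wide, with 21.3 normalized counts or 19.3 per kb. It covers starts of CMPK2 other than the canonical one, which lies 209 bp outside, and it lies 226 bp from the nearest start of RSAD2, whose canonical start had a region of its own with 8.16 normalized counts. IFITM3, which blocks viral entry, was given a region 858 bp from its nearest annotated start and 3309 bp upstream of the canonical start (chr11:324169-325436), with 34.5 normalized counts in 1267 bp, or 27.2 per kb. The canonical starts of IFITM3 and of its neighbours IFITM1 and IFITM2 had no region. From IFITM1 the nearest region was this same one, 9382 bp off, and from IFITM2 it lay 15025 bp away with a level of 6.61. BST2 (tetherin, which holds budding virus on the cell) had none, the nearest region being 6793 bp away with 10.9.

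The PARP genes, which transfer ADP-ribose, and DTX3L, a ubiquitin ligase that pairs with PARP9, had regions of similar width and low density. PARP9 and DTX3L are divergent genes with a common promoter, and the shared region (chr3:122563641-122565344) had 14.9 normalized counts in 1703 bp, or 8.73 per kb. PARP14 had 20.6 in 1839 bp, or 11.2 per kb, and PARP12 had 17.9 in 1741 bp, or 10.3 per kb. Of the paired genes SAMD9 and SAMD9L on chromosome 7, which restrict poxviruses and cell growth, SAMD9 had 33.0 in 1835 bp (chr7:93116993-93118828), or 18.0 per kb. SAMD9L had no region, and the nearest, 29517 bp away, was that of SAMD9. The antibody receptor and ubiquitin ligase TRIM21 had 39.2, or 21.1 per kb, and TRIM22, an antiviral ligase, had no region, the nearest lying 60618 bp away with 2.01.

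Among the remaining genes, TNFSF10 (TRAIL, a ligand that triggers cell death) had 58.9 normalized counts spread over 4604 bp (chr3:172519729-172524333), the widest region of the set, which comes to 12.8 per kb. SP110, a nuclear body protein, had 51.1 in 918 bp (chr2:230219593-230220511), which at 55.6 per kb was the densest. These promoters stood close together by level and far apart by density. IFI6, a mitochondrial protein, had 30.9, or 26.0 per kb. EPSTI1 had 32.5, or 9.97 per kb, and IFI35 had 10.5, or 10.8 per kb. The other 5 of the 10 genes of this group had no region, so 50% had one, beside 75.3% of all protein-coding genes. IFI44L and IFI44, neighbours on chromosome 1, lay 70045 and 99939 bp from the nearest region, which had a level of 2.53. XAF1, an antagonist of the apoptosis inhibitor XIAP, lay 5529 bp from a region with 1.04, and LGALS3BP, a secreted glycoprotein, 2769 bp from a region with 3.16. IFI27 lay 13349 bp from a region with 41.3 that belongs to its relative IFI27L2.

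Having no region in the table does not mean that the mark is absent. The table holds regions down to a mean of 0.299 normalized counts, and the level at a start without a region was not measured. The 8 genes whose level lay closest to the split were TNFSF10, STAT2 and SP110 just above it, and IFIT5, IFIH1, HERC5, OAS3 and EIF2AK2 just below it, from 43.7 to 58.9 normalized counts. With no error on the mean, which side of the split these genes fall on is uncertain. Sequence copies were checked as well, and the 24-base stretches sampled from each strongest region had a median of 1 copy in the genome for all 40 genes.

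In 29 of the 40 genes the strongest region covered the canonical start. It reached further into the gene than upstream of it in 19 of these and further upstream in 10, with medians of 1013 bp into the gene and 826 bp upstream. In 11 it did not, namely ADAR, JAK1, IFITM3, IFIT2, MX1, CMPK2, RSAD2, MX2, DHX58, HERC6 and UBE2L6, and in 3 of these (IFITM3, RSAD2 and HERC6) the region covered none of the gene's annotated starts. In TNFSF10 the region ran from 903 bp upstream to 3701 bp downstream of the start, and in IFNAR1 from 883 to 3553 bp, whereas in IFIT3 it ran from 349 to 151 bp. In USP18 it reached further upstream, 2132 bp, than downstream, 1774 bp.

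**Figure D3:**
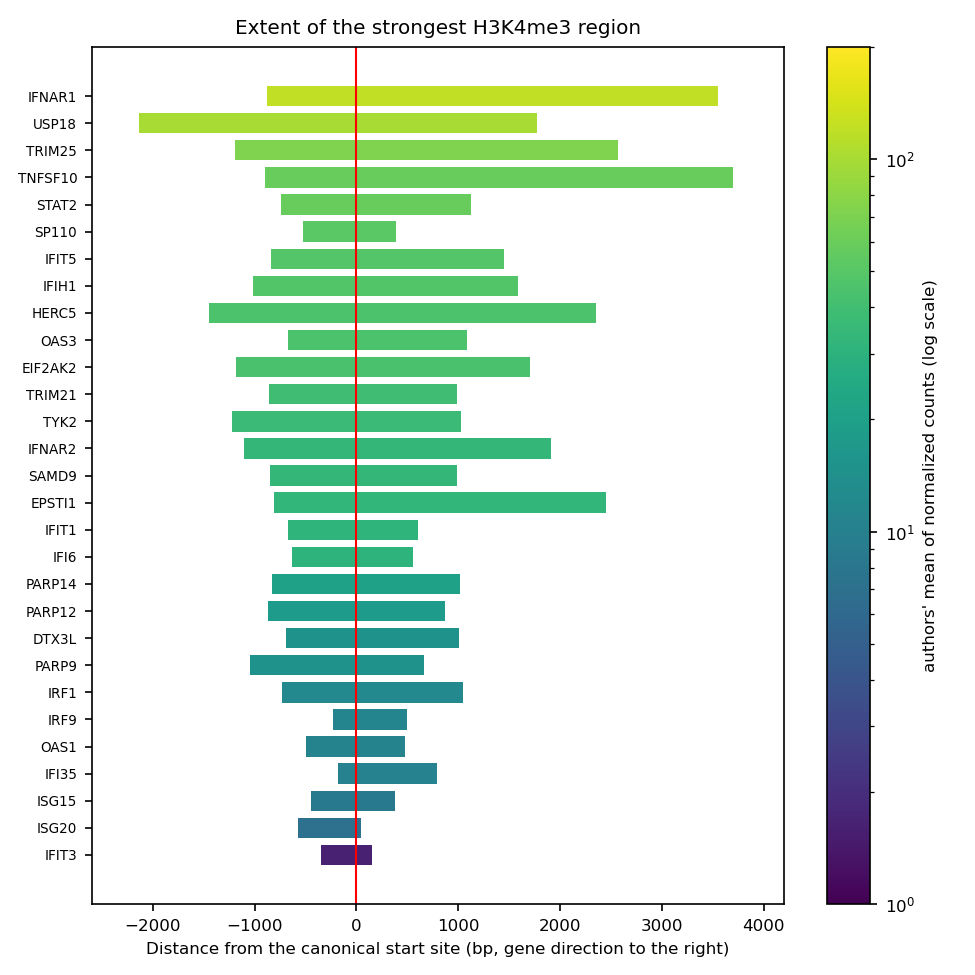
Extent of the strongest H3K4me3 region around the canonical start site (red line at 0) in the 29 genes where it covers that site, in bp along the direction of the gene, ordered and coloured by the authors' mean of normalized counts (log colour scale). The widest bars, TNFSF10 and IFNAR1, reach 3701 and 3553 bp into the gene, and the lowest gene, IFIT3, has the narrowest bar.

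The CpG content of the promoters was measured next, since it goes with H3K4me3 across genes. A promoter was termed CpG-rich where the observed over expected CpG ratio of its 300 bases was at least 0.6. Of the 43 interferon genes with a promoter sequence 21 (48.8%) were CpG-rich, against 66.5% of 15308 genes. All 21 CpG-rich genes had an H3K4me3 region, beside 93.1% of all CpG-rich genes, and of the 22 CpG-poor genes 14 (63.6%) had one, beside 47.4%. Within the CpG-rich class the median level was 35.9 normalized counts against 57.0 for all such genes, and 5 of 21 (23.8%) were strong against 52.6%. Within the CpG-poor class the medians were 26.1 and 28.5, and 2 of 22 (9.09%) were strong against 15.2%. By level, the gap between the set and all genes was thus larger in the CpG-rich class than in the CpG-poor class. Within the set itself, the CpG-poor class had the lower median. Spearman's rho between CpG ratio and level was 0.229 over 35 interferon genes and 0.218 over 11912 genes with a region and a sequence, and genes in either list share libraries and, in part, regions.

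**Figure D4:**
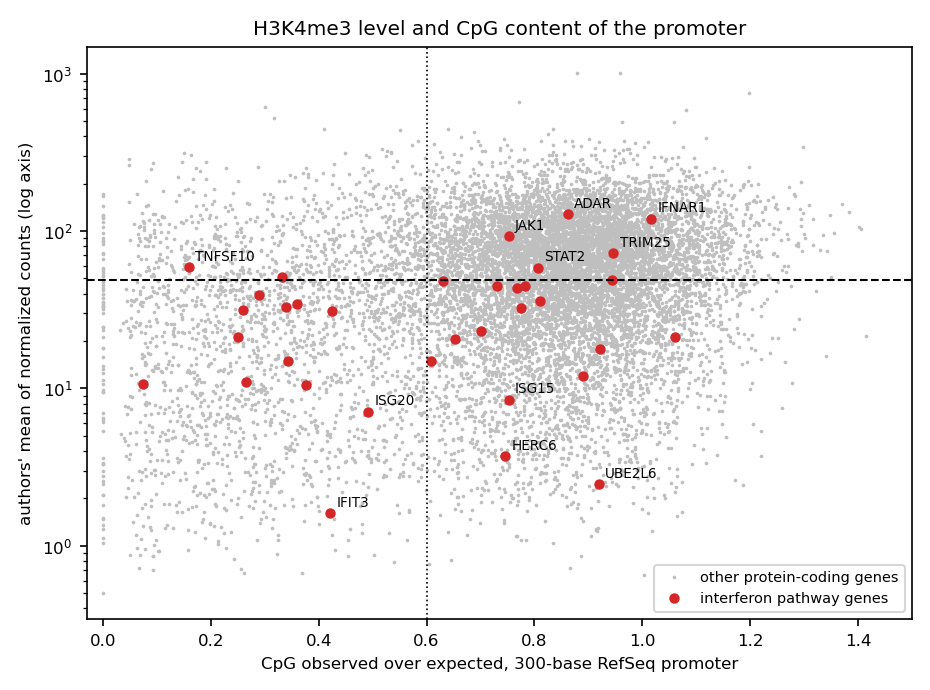
Level of the strongest H3K4me3 region (authors' mean of normalized counts, log axis) against the CpG observed over expected ratio of the promoter, for the 35 interferon genes with both values (red) and other protein-coding genes (grey). The dashed line is the median of all promoters, 49.2, and the dotted line the ratio of 0.6. UBE2L6, HERC6 and ISG15 are CpG-rich and low, and TNFSF10 is CpG-poor and above the median.

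The plot of level against CpG ratio shows genes that depart from the class medians. UBE2L6, HERC6 and ISG15 had CpG-rich promoters with 2.45, 3.71 and 8.47 normalized counts, and TNFSF10 had a CpG-poor promoter with 58.9. Genes with an ISRE core were CpG-poor in 14 of 26 cases, and those without in 8 of 17. Of the 26 with a core, 20 had a region, with a median of 32.0 normalized counts, and 1, TNFSF10, was strong. Of the 17 without a core, 15 had a region, with a median of 21.3, and 6 were strong, namely ADAR, IFNAR1, JAK1, TRIM25, STAT2 and SP110. Among all 1078 protein-coding promoters with the core, 759 had a region, the median was 60.6 normalized counts, and 432 were strong. Of all 15308 promoters searched, 11912 (77.8%) had a region, the median was 51.2, and 6137 (40.1%) were strong. The share of strong promoters was thus about the same with the core as over all promoters searched. The searched 300 bases overlapped the strongest region in 31 of the 35 genes with both, ADAR and JAK1 among them, but not in SP110, RSAD2, HERC6 and IFITM3. Over the whole strongest region, which is wider than the searched window, 6 of the 8 strong promoters held at least 1 core, as did 20 of the 32 others. The exceptions among the strong ones were IFNAR1 and JAK1. The median width was 3840 bp for the strong promoters and 1682 bp for the others, and a wider region has more room for a match. The same count over the strongest regions of all genes was not made, so these counts have no background to be read against.

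Other letters were searched in the same windows, on both strands. The core of the gamma-activated site (GAS), TTCNNNGAA, was found in 9 of 43 interferon promoters (20.9%) and in 6.95% of all promoters. These were BST2, EPSTI1, IFI27, IFI35, IFITM1, IRF1, IRF9, OAS1 and PARP14, and in 4 genes it overlapped an ISRE core. The TATA box, TATAAA, was found in 5 (11.6%), namely ADAR, IFI27, IFI44, IFIT3 and TNFSF10, against 9.63%. A sequence of another pathway, the E2F-like TTTCCCGC, was found in IFIH1, OAS3, PARP12 and RSAD2 (9.30%), against 2.20%. In the printed promoter of IFIH1 it overlaps an ISRE core, and such overlap was not counted in the other genes. The positions of the ISRE core differed between genes. A core lay wholly within the 60 bases before the start in 11 genes, farther upstream in 14, across the start in 4 (DTX3L, EIF2AK2, IFIT5 and IFITM1) and after it in MX1 and TRIM21, and some genes had cores in more than 1 of these places. In IFI6 there were 3 cores between 156 and 85 bases before the start. A match describes letters in this window and does not show that a factor binds there.

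Other genes of the pathway and broader gene lists were set beside the 53 genes for scale. Of 31 further pathway genes, 18 had a region (58.1%, beside 75.3% of all genes) and 7 were strong (22.6%, beside 37.7%), with a median of 44.2 normalized counts and a median density of 18.0 per kb. The 13 without a region included CGAS and STING1 (the sensor of cytosolic DNA and its adaptor), TLR3, TLR7 and TLR9, the interferon genes IFNB1, IFNA1, IFNA2, IFNL1 and IFNG, and GBP1, GBP2 and SOCS3. Of 341 genes in the study's list of interferon-stimulated genes, 36 of them among the 53, 263 had a region (77.1%) and 106 were strong (31.1%), with a median of 38.8. With the 36 removed, the median of the list was 41.6. Of 98 genes in its list of the type I response, 68 had a region (69.4%) and 27 were strong (27.6%), with a median of 40.4, and without the 29 genes shared with the set the median was 49.0. The broader lists therefore lay between the 53 genes and the median of all promoters, 49.2.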

How the data were processed

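The H3K4me3 data come from 8 MINT-ChIP samples, 4 for each state. Alignment to hg38 was done by the authors in Bowtie2, peak finding in HOMER and the test between states in DESeq2. Peak merging and counting are not given in the sources used here. For 97545 regions the deposited table gives the position and the authors' mean signal, a mean of DESeq2-normalized counts over both states. Its other 5 columns hold the authors' comparison (log2 fold change, standard error, Wald statistic, p-value, adjusted p-value) and were not used, so no comparison of the states was made. Depth per sample is unknown.

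Starts were those of all transcripts of protein-coding genes in GENCODE release 44. The strongest region within 2 kb stood for a gene, and widths are end minus start. Motifs were read in the first promoter that RefSeq lists for a gene. The 53 genes, the gene lists and the motifs were chosen with earlier results of these data known. Levels, positions and widths are given for the 5 strongest and 5 weakest genes, for shared regions, for clustered families and for genes close to the split. The linking was tested on simulated data. Software was pysam 0.24.0 for sequences, pandas 2.3.3 and numpy 2.4.6 for tables, numba 0.67.0 for copies, scipy 1.17.1 and matplotlib 3.10.9, in Python 3.11.15. Alternatives covered the window (1 or 5 kb), canonical starts, the nearest region, summed regions, levels per kb, distinct regions, a minimum level of 5 and other forms of the motif.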

Additional observations from a re-analysis of the deposited data

How the results depend on the processing

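Of 29 alternatives, 27 stayed within 1.5 times of the values reported. The exception was the level per kb of width, under which 16 genes lay above the median of all promoters instead of 8, and the median of the set was 16.6 per kb beside 19.0 for all genes. In the other alternatives the number of strong promoters ran from 7 to 12, the number of genes with a region from 37 to 41, the median level from 30.9 to 33.0 normalized counts and the median width from 1703 to 1752 bp. The count of promoters with an ISRE core ran from 25 to 37, and with 1 mismatch allowed 55.1% of all promoters held it too. Taking any promoter listed for a gene, an alternative chosen after seeing the data, gave 28 genes beside 9.25% of all genes, adding CMPK2 and PARP9. No paired analysis was possible because the deposited means pool the samples, and leaving out a replicate was not run for the same reason. Precision is unknown without a value or a depth per sample. Levels near the lower end, such as that of IFIT3, rest on few normalized counts.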

Other observations

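Within the bodies of the interferon genes, away from the annotated starts of protein-coding genes, 17 genes held 37 further H3K4me3 regions. Starts of noncoding genes were not checked, so some of these regions may lie at such starts. Their levels ran from 1.11 to 35.8 normalized counts with a median of 2.76 and a median width of 500 bp, and none exceeded the median of all promoters, 49.2. The highest lay in JAK1.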
